A study of Mus musculus with 4 samples.

Results

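The genes described here are 8 genes of pigment production and pigment cell identity in a mouse melanoma line: TYR and TYRP1, which encode melanin enzymes, SLC24A5, MLPH, MYO5A and RAB38, which encode proteins of melanosome ion exchange and transport, and MC1R and MET, which encode receptors. They were taken by symbol from the deposited tables, spelled in capitals there and here, and are 8 of the 3117 genes listed in either table. All 8 were listed at the transcription start site (TSS) and 7 at the transcription end site (TES); TYRP1 at the TES was not analysed here.

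The study applied mNET-seq, which sequences the short nascent RNA held by immunoprecipitated RNA polymerase II (Pol II), to B16F10 cells, an established melanoma line. Control libraries came from parental, wild-type B16F10 cells, and the others from B16F10 cells labelled Carm1 KO, in which the arginine methyltransferase gene Carm1 is knocked out; no treatment, time course or number of clones is given in the labels. Each genotype has 1 library with an antibody to the Ser2-phosphorylated Pol II tail (Ser2P), a mark of elongating polymerase, and 1 with antibody 8WG16 to the Pol II tail, each from 3 pooled sets of cells, so there is no replicate to set a difference against and no test was possible. The value analysed is the authors' ratio of Ser2P signal to a second signal they do not name, 1 number per gene, genotype and end of the gene, and it says nothing about how strongly a gene is transcribed. Carm1 itself was not analysed here, and read depth is unknown.

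Melanin is made inside melanosomes, organelles related to lysosomes. Tyrosinase (TYR) catalyses the first steps from tyrosine, and the related enzyme TYRP1 acts later in the synthesis of brown-black eumelanin. SLC24A5 is a cation exchanger needed for normal melanin content, RAB38 is a small GTPase that helps deliver the enzymes to the maturing organelle, and melanophilin (MLPH) links RAB27A on the finished melanosome to the motor myosin Va (MYO5A), which holds it in the cell periphery. MC1R is the receptor for melanocortin and drives the pigment programme through cyclic AMP and the transcription factor MITF; MET is the receptor kinase for hepatocyte growth factor.

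Over all genes Carm1 KO cells had the higher ratio at both ends, by a median of 1.17 on the log2 scale over 2859 genes at the TSS and 0.85 over 3016 genes at the TES. The scale between libraries is not given, so each change is given as deposited, then less that median. The percentile of a gene's ratio among all listed genes of the same genotype and end, which does not depend on such a scale, is given too. Of 8 melanocyte markers 5 were listed at the TSS (SOX10, PMEL, MLANA, TYR and TYRP1) and 3 at the TES (PMEL, MLANA and TYR). TYR and TYRP1 among them belong to the genes described here. No keratinocyte, fibroblast or endothelial marker on the lists used here was listed, while 1 of 4 blood markers, CD68, was listed, with TSS ratios of 1.23 and 2.16 and TES ratios of 0.559 and 1.03 in control and Carm1 KO cells. A listing is not a measure of expression, so these counts do not test the cell type.

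Because the TSS values bear on the starts of these genes, the sequence there was read from the RefSeq promoter table (build GRCm38.p6), which matched 7 of the 8 genes. The 250 bases before each RefSeq start were searched on both strands for TCATGTG, the core of the M-box recognised by MITF, and for CACGTG, the palindromic E-box. The letters of one motif do not overlap those of the other. TCATGTG was found in 3.25% and CACGTG in 6.02% of 32851 such windows, listed genes or not. Among listed genes compared at the TSS, 47 held TCATGTG and 2262 did not, and 293 held CACGTG and 2016 did not. Among the matched genes 4 held TCATGTG (TYR, TYRP1, MC1R and SLC24A5), 2 held CACGTG (MLPH and MET) and the MYO5A window held neither. The sites are shown 5′ to 3′ on the gene's strand to let the 6 matches be compared, with the motif in capitals. In SLC24A5 the match is on the opposite strand, so the capitals show its reverse complement, and the stretch stops at the RefSeq start. The first base of the motif lies 22 bases before the RefSeq start in TYR, 47 in TYRP1, 52 in MC1R, 13 in SLC24A5, 48 in MLPH and 126 in MET. GENCODE M21 places the starts of TYRP1 and MET further upstream, by 90 and 157 bases, so there the match lies inside the annotated gene.
TYR, chr7:87493516-87493545 (minus strand): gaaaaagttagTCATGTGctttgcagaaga
TYRP1, chr4:80834155-80834184 (plus strand): tggggagggagTCATGTGctgcctagtagt
MC1R, chr8:123407019-123407048 (plus strand): gcacatgcccaTCATGTGgccaccctcagg
SLC24A5, chr2:125068103-125068126 (plus strand): aggagactgctCACATGAttcagc
MLPH, chr1:90915040-90915069 (plus strand): tcaggagtagccCACGTGatctgagccgca
MET, chr6:17463819-17463848 (plus strand): gggacgaacagaCACGTGctggggcgggta

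TYR and MC1R hold the same motif and had close TSS ratios in control cells, but their TSS changes stand far apart, so their whole upstream windows are shown. The TYR window, chr7:87493513-87493762 on the minus strand, has 28.8% G and C, and the MC1R window, chr8:123406832-123407081 on the plus strand, has 54.4%. The median of 2309 listed genes with a promoter entry was 60.8%. TYRP1, at 39.2%, also lay low, whereas MYO5A and MET had 74%, MLPH 64.8% and SLC24A5 56%. The share of G and C was not set against the TSS change over all genes, and any part of it was not tested.
TYR: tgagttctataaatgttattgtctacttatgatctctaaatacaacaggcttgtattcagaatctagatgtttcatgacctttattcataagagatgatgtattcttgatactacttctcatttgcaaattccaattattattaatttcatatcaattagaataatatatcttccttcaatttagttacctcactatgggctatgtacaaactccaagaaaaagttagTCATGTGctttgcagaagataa
MC1R: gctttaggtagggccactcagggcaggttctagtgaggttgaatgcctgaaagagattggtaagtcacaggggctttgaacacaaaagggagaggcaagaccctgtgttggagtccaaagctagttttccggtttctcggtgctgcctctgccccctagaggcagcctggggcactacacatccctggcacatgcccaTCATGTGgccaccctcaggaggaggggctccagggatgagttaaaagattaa

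Over all listed genes, the 47 compared at the TSS with TCATGTG had a median log2 change of 1.14, and the 2262 without it 1.19; 76.6% and 71.7% of them were called higher, by 1.5-fold or more. At the TES the medians were 0.89 over 49 genes and 0.86 over 2404, with 85.7% and 66.8% higher. The 4 pigment genes that hold TCATGTG spanned TSS changes from -0.24 to 3.32. For CACGTG the TSS medians were 1.11 over 293 genes with it and 1.20 over 2016 without it, with 73.4% and 71.6% higher. The TES medians for CACGTG were 0.85 over 308 genes and 0.86 over 2145, with 68.8% and 67.0% higher.

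At gene starts MC1R, MET, MLPH and MYO5A had higher ratios as deposited in Carm1 KO cells, past 1.5-fold. RAB38 (log2 change 0.41) and SLC24A5 (0.14) rose by less, and the melanin enzymes had slightly lower ratios. Less the median of all genes, MLPH (0.42) and MET (-0.05) were within 1.5-fold, so the genes did not divide by role. Calls of higher or lower require a change of at least 1.5-fold in the ratios as deposited. At the TSS 4 of 8 genes were called higher and 0 lower, against 71.2% and 5.6% of all compared genes. Less the median of all genes, MC1R and MYO5A (2 of 8) were higher and TYR, TYRP1, SLC24A5 and RAB38 (4 of 8) lower, against 28.6% and 28.8% of all genes. The 8 TSS changes had a median of 0.77, below the 1.17 of all genes, and 3 of them lay above that value.

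**Figure D1:**
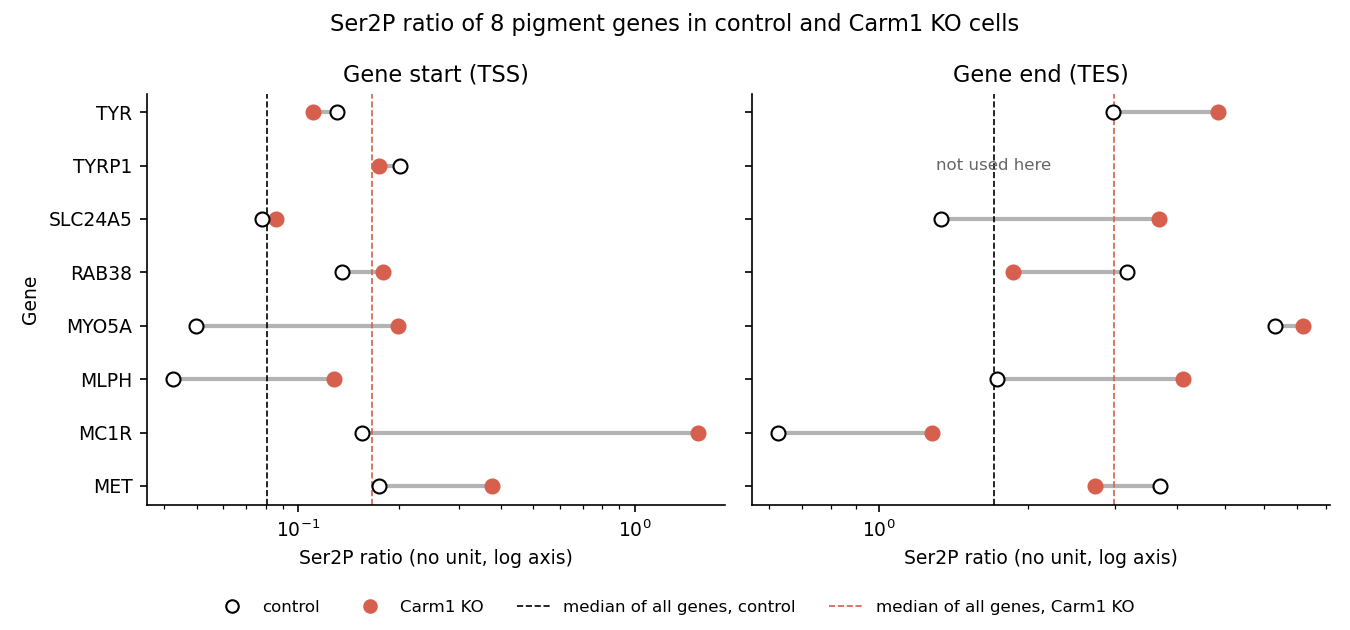
Ser2P ratio (log axis, no unit) of each gene at the TSS, left, and the TES, right. Open circles are control and filled circles Carm1 KO, 1 ratio each with no replicate, and dashed lines mark the medians of all genes. TYR and TYRP1 are the 2 genes with the filled circle on the left at the TSS, and MC1R has the longest bar there, from 0.155 to 1.55.

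The melanin enzyme genes had slightly lower start ratios in Carm1 KO cells, where most genes had higher ones. TYR, on the minus strand of chromosome 7 from 87424771 to 87493512 (GRCm38, as are all positions here), went from 0.131 in control to 0.110 in Carm1 KO cells at the TSS, a log2 change of -0.24. TYRP1, on the plus strand of chromosome 4 from 80834123 to 80851719, went from 0.201 to 0.173, a change of -0.21. Neither passed 1.5-fold. Both lay near the bottom of all changes, TYR at percentile 9.57 and TYRP1 at percentile 10.2, and 1.41 and 1.38 below the median change. In rank among all TSS ratios TYR went from percentile 69.1 to 33.8 and TYRP1 from 80.1 to 51.8, so both stood well above the middle of all genes in control cells, and in Carm1 KO cells TYR stood below it and TYRP1 close to it. Genes in the same group of control ratio as TYR (10 groups of equal number) had a median change of 0.66, and in that of TYRP1 0.54. TYR lay at percentile 16.3 and TYRP1 at 17.7 of those groups.

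At its end TYR behaved like most genes. Its TES ratio went from 2.98 in control to 4.83 in Carm1 KO cells, which is 1.62-fold higher, a log2 change of 0.70 that passes 1.5-fold. This is 0.15 below the median of all genes, and the rank of its TES ratio was close in both genotypes, at percentiles 72.1 and 74.7. The ratio of TYR at its end was 22.8 times that at its start in control and 43.8 times in the knockout, while the median gene went from 19.5 to 15.7 times. The end-to-start contrast of TYR therefore widened by 0.94 on the log2 scale, at percentile 86.7 of 2775 genes.

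**Figure D2:**
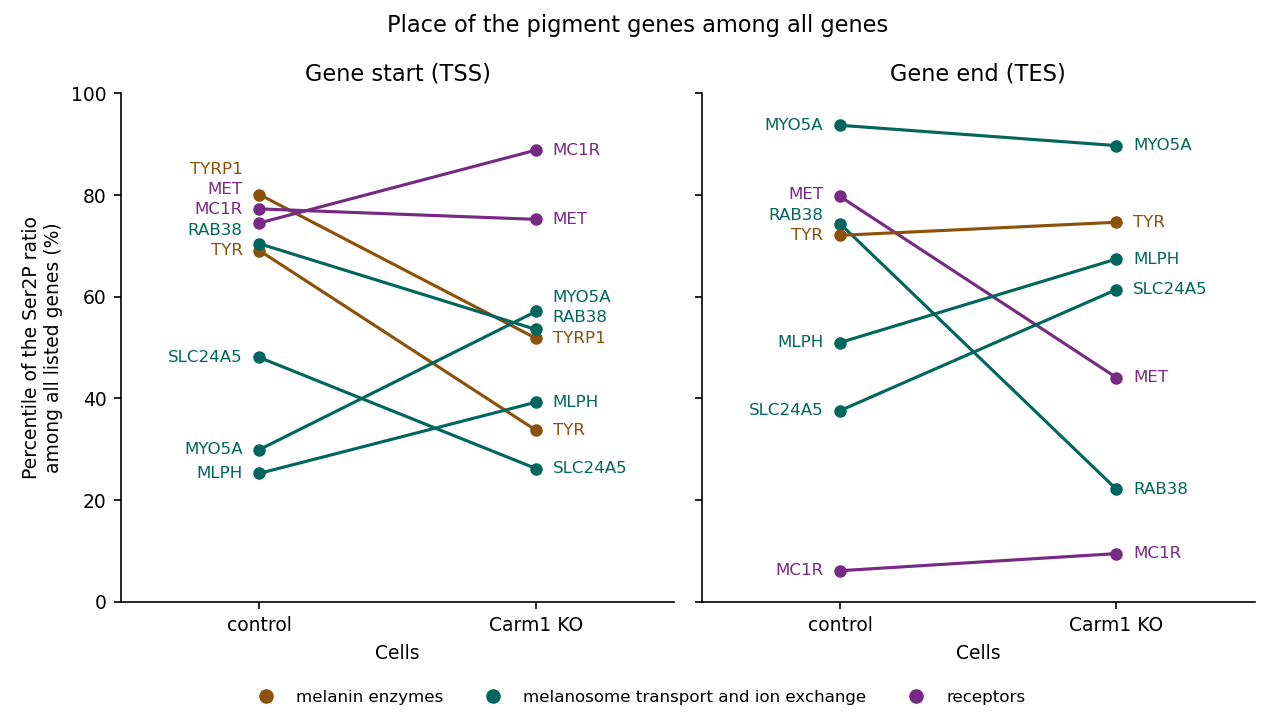
Percentile of each gene's Ser2P ratio among all listed genes, in control and Carm1 KO cells, at the TSS (left) and the TES (right). Each point is 1 ratio with no replicate, and lines join the same gene. At the TSS the lines of TYR, TYRP1, SLC24A5 and RAB38 fall and those of MC1R, MYO5A and MLPH climb. At the TES the line of RAB38 falls from 74.4 to 22.1.

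SLC24A5, on the plus strand of chromosome 2 from 125068124 to 125088677, shared its calls with TYR, between the limits at the start and higher at the end. Like TYR, it also fell in rank at the start and widened its end-to-start contrast. Its TSS ratio went from 0.0781 in control to 0.0860 in Carm1 KO cells, a log2 change of 0.14 at percentile 17.0. The rank of SLC24A5 among TSS ratios went from percentile 48.1 to 26.2. Genes in its group of control ratio had a median TSS change of 0.90, and SLC24A5 lay at percentile 20.5 of that group. Its TES ratio was 1.34 and 3.67, a change of 1.46 at percentile 89.7, and it alone of the 7 genes stayed above 1.5-fold at the TES once the median was subtracted, at 0.61. The end-to-start contrast widened from 17.1 to 42.7 times, by 1.32 on the log2 scale, at percentile 91.5. The last 4050 bases of SLC24A5 overlap MYEF2, a gene on the opposite strand. Whether the counting used strand is not given in the sources used here, and any part of MYEF2 in the TES value was not tested. The TSS ratios of SLC24A5 were each shared by 3 other genes, and how many reads they rest on is unknown.

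The genes for the motor and its adaptor had low start ratios in control cells and higher ones in Carm1 KO cells. MYO5A, on the plus strand of chromosome 9 from 75071015 to 75223688, went from 0.0495 to 0.197 at the TSS, which is 3.98-fold higher (log2 change 1.99, percentile 78.4). MLPH, on the plus strand of chromosome 1 from 90915085 to 90951142, went from 0.0426 to 0.128 (1.59, percentile 65.1). Of this pair only MYO5A kept, relative to all genes, a 1.5-fold increase, at 0.83, while MLPH was at 0.42. In rank MYO5A climbed from percentile 29.9 to 57.1 and MLPH from 25.3 to 39.3. Genes in the same group of control ratio as this pair had a median TSS change of 1.35. MYO5A lay at percentile 77.4 and MLPH at 61.7 of that group. The Carm1 KO value of MLPH was shared by 11 other genes and that of MYO5A by 4. How many reads such shared values rest on is unknown, and any part of low counts in these folds was not tested.

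At the gene ends this pair parted. MLPH went from 1.73 to 4.11 at the TES (log2 change 1.25, percentile 79.6), which left it 0.40 above the median of all genes. MYO5A had the highest TES ratio of the 7 genes in both genotypes, 6.31 and 7.20, and changed by 0.19 only, 0.66 below the median. Its end ratio was 127 times its start ratio in control, the steepest contrast of the 7 genes and at percentile 90.6 of all genes, and 36.5 times in the knockout. MLPH went from 40.7 to 32.2 times, and this narrowing was at percentile 51.5 of all such differences, while each end by itself changed by more than the median gene. PRLH, which begins 1965 bases past the end of MLPH on the same strand, changed by 1.02 at its start, which faces MLPH, and by 2.33 at its own end. Its part in the MLPH value was not tested.

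RAB38 was the only gene of the 7 called lower at its end as deposited. It lies on the plus strand of chromosome 7 from 88430273 to 88491572. Its TES ratio went from 3.17 in control to 1.87 in Carm1 KO cells, 1.69-fold lower (log2 change -0.76), at percentile 5.49 of all changes and 1.61 below the median. Its rank among TES ratios went from percentile 74.4 to 22.1. At the start the ratio was 0.135 and 0.179, a log2 change of 0.41 that does not pass 1.5-fold and lies 0.76 below the median. Its rank among TSS ratios went from percentile 70.5 to 53.6. RAB38 was thus below the median change of all genes at both ends, unlike MLPH, which was above it at both. Genes in the group of control ratio of RAB38 had a median TSS change of 0.66, and RAB38 lay at percentile 39.7 of that group. At the TES the median of its group was 0.64, and RAB38 lay at percentile 6.46.

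MC1R had the largest change of the 8 genes. It lies on the plus strand of chromosome 8 from 123407107 to 123410744 and is the shortest of them, at 3638 bp. Its TSS ratio went from 0.155 in control to 1.55 in Carm1 KO cells, 9.97-fold higher (log2 change 3.32), which ranks number 120 of 2859 genes and is 2.15 above the median change of all genes. Its percentile among TSS ratios went from 74.5 to 88.9. Genes in its group of control ratio had a median TSS change of 0.54, and MC1R lay at percentile 98.8 of that group. At the TES it went from 0.627 to 1.28 (log2 change 1.03), 0.18 above the median of all genes, and its TES ratio was low in both genotypes, at percentiles 6.12 and 9.49. The end ratio was 4.05 times the start ratio in control and 0.827 times in the knockout, so MC1R was the only one of the 7 genes whose start ratio exceeded its end ratio, and that only in Carm1 KO cells. Among all 2775 genes 83 were inverted in this way in control and 171 in Carm1 KO cells.

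MC1R lies between 2 other listed genes on its strand. TCF25 ends 3271 bases before it, and its TES ratio went from 1.55 in control to 5.56 in Carm1 KO cells (log2 change 1.84). TUBB3 begins 679 bases after it, with TSS ratios of 0.663 and 1.56 (1.23). A further annotated transcript still to be verified, Gm38092, overlaps MC1R on the opposite strand and ends 993 bases past the MC1R start. Gm20388, annotated as protein-coding, overlaps MC1R on the same strand. The window the authors counted is not given, and any part of these neighbours in the MC1R values was not tested.

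MET, on the plus strand of chromosome 6 from 17463800 to 17573980, followed all genes at its start and not at its end. Its TSS ratio went from 0.174 in control to 0.378 in Carm1 KO cells, 2.18-fold higher (log2 change 1.12). This is 0.05 below the median, and its rank hardly differed, at percentiles 77.3 and 75.2. Genes in its group of control ratio had a median TSS change of 0.54, and MET lay at percentile 71.2 of that group. Its TES ratio was 3.70 and 2.73, a log2 change of -0.44 that does not pass 1.5-fold as deposited but is 1.29 below the median. Its rank among TES ratios went from percentile 79.8 to 44.1. The end-to-start contrast narrowed from 21.3 to 7.22 times. Less the median of all genes, the start of MC1R was the one receptor value still called higher.

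**Figure D3:**
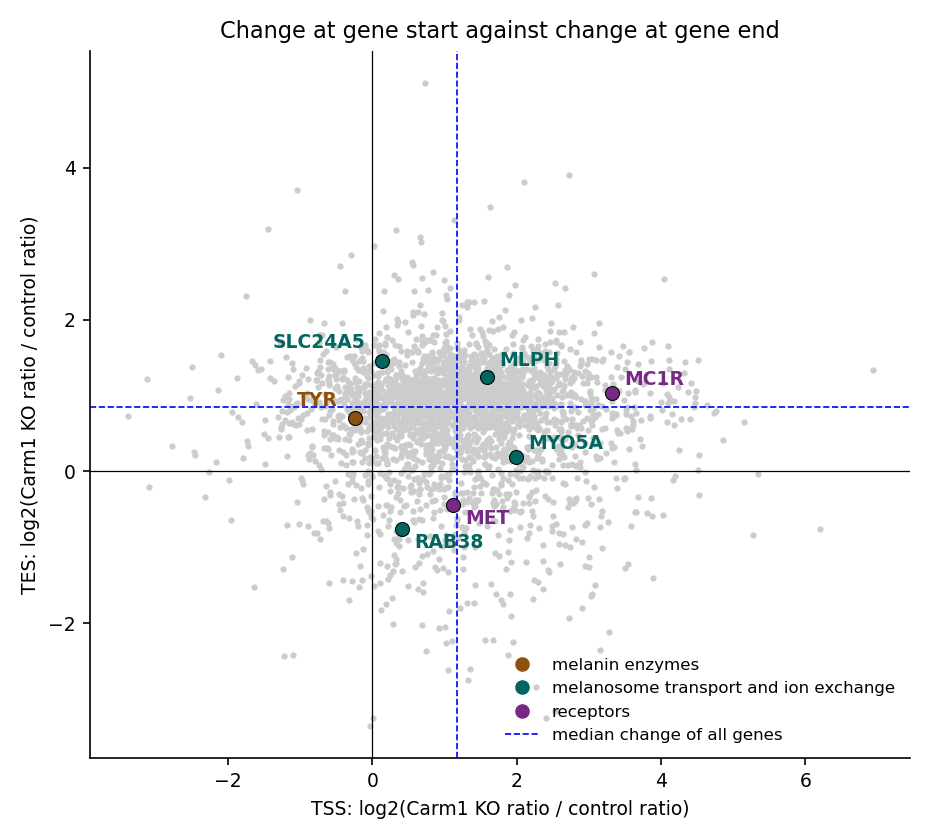
Log2 change of the Ser2P ratio (Carm1 KO over control) at the TSS, horizontal, and at the TES, vertical, for 7 pigment genes (coloured) and all genes above 0 at both ends (grey); dashed lines are the medians of all genes, 1.17 and 0.85. TYR and SLC24A5 sit far left of the vertical median line, MC1R far right of it, and RAB38 and MET below 0 on the vertical axis.

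At gene ends 4 of 7 genes were called higher (TYR, SLC24A5, MLPH and MC1R) and 1 lower (RAB38), against 66.7% and 7.13% of all compared genes. Less the median of all genes 1 was higher and 3 were lower (RAB38, MET and MYO5A), against 11.6% and 22%. The 7 changes had a median of 0.70, against 0.85 for all genes. Over both ends, MC1R and MLPH were higher at each, a class that held 49.2% of 2775 genes, and MYO5A and MET were higher at the start only (17.6%). TYR and SLC24A5 were higher at the end only (14.5%), and RAB38 was between the limits at the start and lower at the end (1.95%).

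The 3 genes with the lowest end changes are among the longest. MYO5A (152674 bp), MET (110181 bp), TYR (68742 bp) and RAB38 (61300 bp) belong to the 2 longest of 10 equal groups of genes by length. Those groups had median TES changes of 0.22 (from 47799 to 77014 bp) and -0.09 (from 77024 bp). Set against its own length group, TYR was 0.48 and MYO5A 0.28 above the group's median, MET was 0.35 below and RAB38 0.98 below. RAB38 was at percentile 14.6 of its group, MET at 36.7, MYO5A at 63.6 and TYR at 70.3. The shorter MLPH (36058 bp), SLC24A5 (20554 bp) and MC1R lay 0.58, 0.45 and 0.13 above the medians of their groups. At the TSS the medians of the length groups ranged only from 1.03 to 1.32, and TYR and TYRP1 stayed 1.52 and 1.31 below theirs. What part length has in these changes was not tested.

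**Figure D4:**
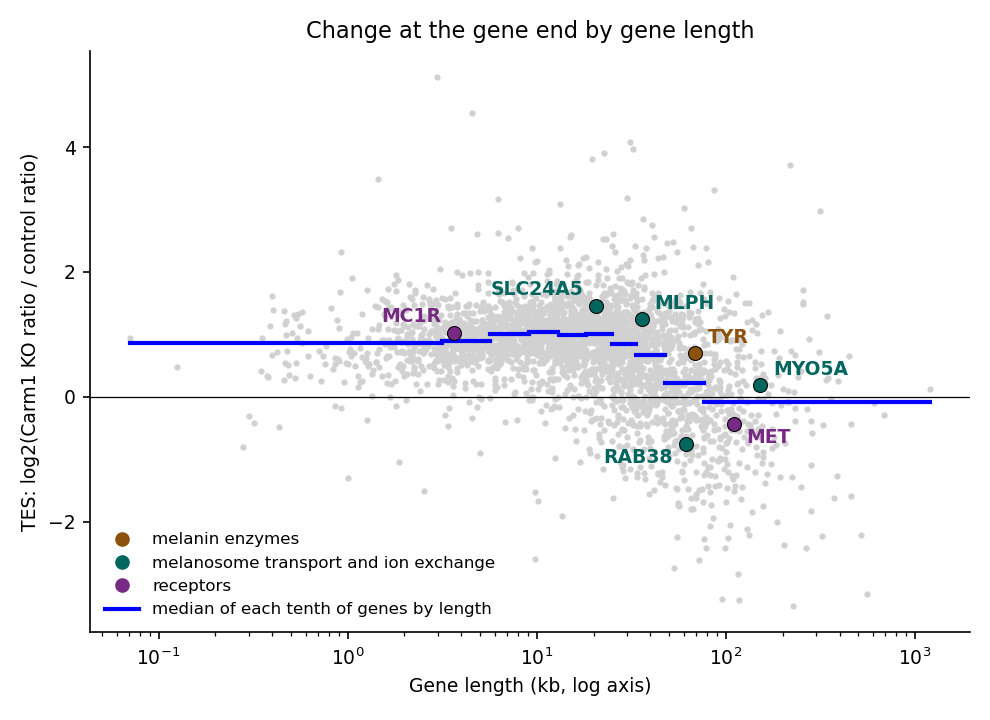
Log2 change of the TES ratio (Carm1 KO over control) against gene length in kb (log axis) for all genes (grey) and 7 pigment genes (coloured); bars are medians of 10 equal groups by length. RAB38 lies 0.98 below the bar of its group and TYR 0.48 above the same bar.

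By Euclidean distance over the 4 log2 ratios (TSS and TES in both genotypes), the nearest genes to each pigment gene lay outside the set. The nearest genes to TYR were NDUFA10 (distance 0.24) and CSRNP2 (0.30), while SLC24A5, the nearest pigment gene, was at 1.47. PTPN12 (0.18) and YTHDC1 (0.41) were nearest to MYO5A, and GM21992 (0.14) and NPC2 (0.21) to MLPH. CRYZL1 (0.27) and TMED10 (0.39) were nearest to SLC24A5, SMCHD1 (0.35) and ANO10 (0.42) to MET, and ATF7IP (0.33) and HSD17B12 (0.38) to RAB38. MC1R had the most distant neighbours, GM16537 (0.65) and PPP1R35 (0.66). With 4 values per gene and 2775 genes some close neighbours are bound to exist. The pigment genes are few beside them, so these distances do not test likeness within the set and are a description only.

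Other genes of the pigment cell were taken from 5 lists by role holding 113 genes besides these 8, of which 24 were listed at the TSS and 23 at the TES. At the TSS 9 of 23 compared were called higher and 3 lower, against 71.2% and 5.6% of all genes, with a median change of 0.55 against 1.17. At the TES 10 of 23 were higher and 1 lower, against 66.7% and 7.13% of all genes, with a median of 0.50 against 0.85.

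Among melanin enzymes and matrix genes, PMEL, which forms the fibrils on which melanin is laid down, MLANA, a melanosome membrane protein, and OSTM1, a subunit of a lysosomal chloride exchanger, were between the limits at the TSS, with changes of 0.58, 0.49 and 0.49. All 3 lay below the median of all genes at their starts, as TYR and TYRP1 did. The list as drawn up also holds SLC24A5, grouped above with transport and ion exchange, and with it 0 of 6 genes lay above that median at the TSS and 1 of 5 at the TES. PMEL had TSS ratios of 0.131 and 0.196 and MLANA 0.106 and 0.149 in control and Carm1 KO cells. At the TES PMEL was higher (from 1.51 to 2.61, change 0.79), and MLANA (0.57) and OSTM1 (0.10) were not past the limit.

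Of 3 other transport genes 2 were higher at the TSS, a share close to the 71.2% of all genes. The trafficking GTPase genes RAB1A (1.74) and RAB11B (1.61) lay between MLPH and MYO5A in change, and RAB7, a GTPase of late endosomes, had a TSS change of 0.10. At the TES RAB7 was lower, from 3.77 to 1.63 (change -1.21), with RAB38 the other lower gene of the list, while RAB1A (0.50) and RAB11B (0.41) lay between the limits.

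Of 9 melanosome biogenesis genes 3 were higher and 3 lower at the TSS, against 71.2% and 5.6% of all genes. The higher ones were HPS1 (1.34), of the BLOC-3 complex, ATP6AP1 (1.22), an accessory subunit of the proton pump, and BLOC1S1 (0.97). Lower were AP3M1 (-1.79), a subunit of the AP-3 adaptor that sorts cargo to melanosomes, from 0.129 to 0.0373, HPS5 (-1.16), of BLOC-2, from 0.371 to 0.165, and the lipid kinase gene PIKFYVE (-0.64). At the TES 6 of these 9 were higher and 0 lower, the same share higher as among all genes (66.7%), led by HPS1 (1.69), PIKFYVE (1.58, from 4.33 to 13.0) and BLOC1S6 (1.01). PIKFYVE thus lay on opposite sides at its 2 ends.

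Of 8 compared regulators of pigment transcription 4 were higher and 0 lower at the TSS, a smaller share higher than the 71.2% of all genes. TBX2, a repressor of the T-box family, changed from 0.0918 to 0.959 (3.38), CTNNB1, which encodes beta-catenin, from 0.00302 to 0.0315 (3.38) and USF1, a factor that binds E-boxes, from 0.907 to 4.91 (2.44). The control ratio of CTNNB1 lies far below the lower quartile of all genes, 0.0422, and its fold depends on that low value. The remaining higher gene was SOX10, an activator of Mitf, at 1.73, named after its value was seen. TCF4 was listed at 0 in control and 0.895 in Carm1 KO cells and has no fold. At the TES 3 of 8 were higher, TBX2 (1.38), USF1 (1.35) and CDK2 (1.07), and 0 lower, again a smaller share higher than among all genes (66.7%). CDK2 is counted because the list as drawn up holds it, although it encodes a cell cycle kinase. PAX3, a lineage factor of melanocytes, changed by 0.55 at the TSS and 0.01 at the TES.

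**Figure D5:**
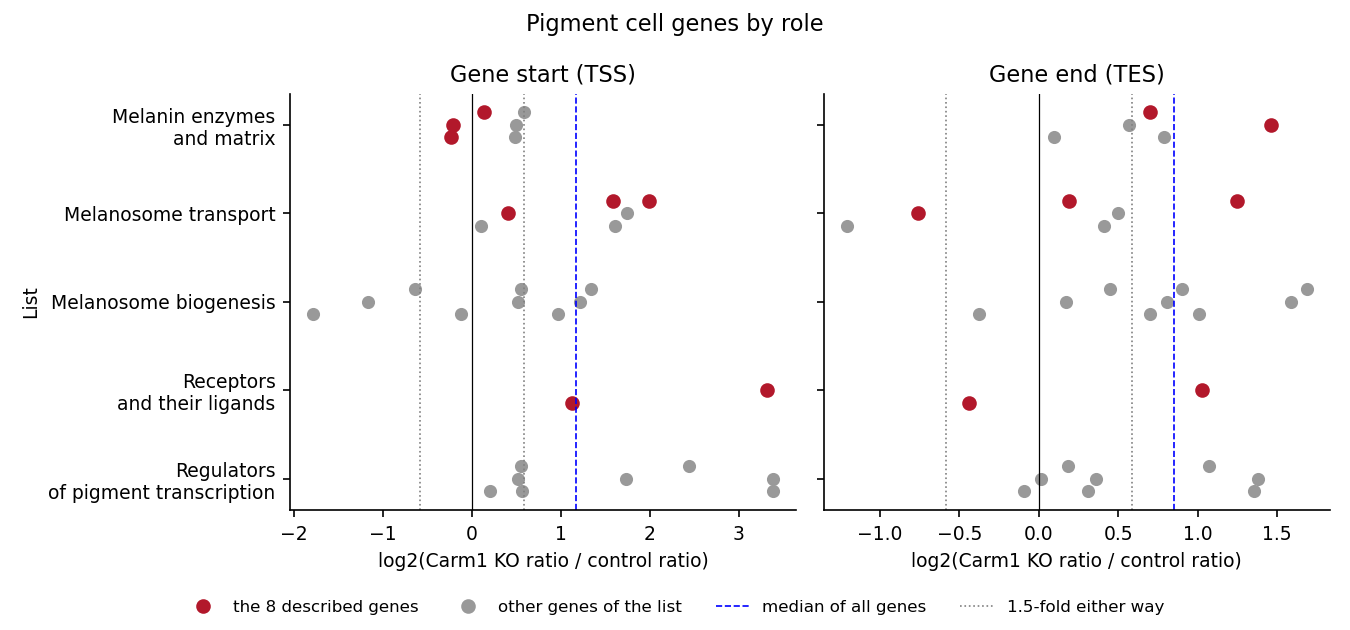
Log2 change of the Ser2P ratio (Carm1 KO over control) at the TSS, left, and TES, right, for each compared gene of 5 role lists; red points are the 8 described genes, grey points the others, the dashed line the median of all genes and dotted lines 1.5-fold either way. All 6 points in the top row of the left panel, SLC24A5 included, lie left of the dashed line, as do 4 of 5 in that row on the right.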

How the data were processed

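Per the labels' protocols, 4 mNET-seq libraries of B16F10 cells were made, 1 per antibody and genotype, from 3 sets of cells pooled after nuclease digestion. The submitters' processing notes name cutadapt 1.18, TopHat2 2.1.1, mm10 and GRCm38, with no settings. The authors deposited, per gene, a Ser2P ratio for control and Carm1 KO cells at the TSS and TES. The file headers call it a fraction, but values pass 1. Not given in the sources used here are its divisor, windows, strand setting, scaling and the choice of genes. The columns carry no sample name and were assigned to genotypes by their own names. The authors' deposited difference equalled Carm1 KO minus control in all rows (tolerance 1e-09) and was not used; columns of other samples numbered 0.

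Changes are log2(Carm1 KO / control) with no pseudocount, called at 1.5-fold, computed with Python 3.11.15, pandas 2.3.3 and numpy 2.4.6. The calculation was tested on simulated data without noise, which checks the arithmetic and not how reliable a call is. Genes at 0 got no fold. A percentile is the share of genes below, ties counted in equal parts. Named genes are the 8 genes, those past 1.5-fold with the 3 largest changes each way in each list, and the 2 nearest in pattern to each; list genes named besides these were chosen after their values were seen. Annotation is GENCODE M21. Members and lists were chosen with earlier results of these data known. Depth is unknown, so no interval was computed.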

Additional observations from a re-analysis of the deposited data

How the results depend on the processing

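Of 143 values recomputed under 5 alternatives, 107 kept their direction and side of the limit (counts: within 1.5 times). Subtracting the median of all genes moved most of the rest. At the TSS it gave TYR -1.41, TYRP1 -1.38, SLC24A5 -1.03, RAB38 -0.76, MLPH 0.42 and MET -0.046; 2 members, 5 genes of the whole pigment list (the 8 included) and 819 of all genes were then higher, and 4, 18 and 823 lower, with a list median of -0.62. At the TES it gave TYR -0.15, MC1R 0.18, MYO5A -0.66, MLPH 0.40 and MET -1.29; 1, 3 and 349 were higher, 3, 10 and 664 lower, and the list median was -0.32. This follows from the subtraction itself. A 2-fold limit left TYR (0.70) and RAB38 (-0.76) uncalled at the TES, with 0 members lower, 9 list genes higher and 1 lower, and 1143 of all genes higher and 121 lower; at the TSS 83 of all genes were lower. Leaving out the lowest 25% of ratios gave 9 list genes higher at the TES and 85 of all genes lower at the TSS, and removed MC1R at the TES; fewer genes were tested. A pseudocount gave 288 of all genes lower at the TSS; the cause was not tested. TYRP1 gets no value where both ends are required. No paired analysis was possible because each group has 1 library, and none could be left out.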
